A study of Mus musculus with 6 samples.

Results

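The SIBLING genes Dspp, Dmp1, Ibsp, Mepe and Spp1 were followed in tooth germs of newborn mice. All 5 were on the array by their RefSeq accession, with 1 probe each, among 17178 named genes and 41174 gene probes, and all 5 passed the filter that left 26677 genes and unnamed probes to test. The samples were lower first molars of 129/Sv mice at postnatal day 0, labelled male, from wild-type mice (3 samples) and from mice labelled Perp-null (3 samples). Perp encodes a membrane protein of desmosomes, and the study compared teeth with and without it. The labels call the 3 samples of a genotype biological replicates. They give neither the way the null allele was made nor the number of animals or litters in a sample, so a p-value reflects only how these samples spread.

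SIBLING proteins (small integrin-binding ligand, N-linked glycoproteins) are acidic phosphoproteins that cells of dentin and bone secrete into collagen matrix, where they bind calcium and, through an RGD sequence, integrins. Dspp is cleaved into dentin sialoprotein and dentin phosphoprotein and is made by odontoblasts and, for a short time, by young ameloblasts, the enamel-forming cells. Dmp1 is made by odontoblasts, osteoblasts and osteocytes, Ibsp (bone sialoprotein) by osteoblasts and cementum cells, and Mepe by osteocytes and odontoblasts. Spp1 (osteopontin) is made by bone cells, osteoclasts, macrophages and many epithelia.

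The genes stand side by side on mouse chromosome 5 in the order Dspp, Dmp1, Ibsp, Mepe and Spp1, and the nearest tested genes outside them are Sparcl1 beside Dspp and Pkd2 beside Spp1. The sequences just upstream of their starts are shown because the genes share a locus and a family. Their profiles over the samples, as described below, were close for some pairs and far apart for others. RefSeq (GRCm38.p6) gave promoters for 4 of the 5 genes. Each line shows 250 bases that end at the base before the annotated start, read 5′ to 3′ on the plus strand. Capitals mark CCAAT boxes (CCAAT, or ATTGG on the other strand), Runx-type sites (ACCACA or TGTGGT) and the letters TTTAAA, which read the same on both strands. No marked stretch overlaps another, and the motifs were chosen after the sequences had been seen.
Dmp1, upstream start, chr5:104197325-104197574: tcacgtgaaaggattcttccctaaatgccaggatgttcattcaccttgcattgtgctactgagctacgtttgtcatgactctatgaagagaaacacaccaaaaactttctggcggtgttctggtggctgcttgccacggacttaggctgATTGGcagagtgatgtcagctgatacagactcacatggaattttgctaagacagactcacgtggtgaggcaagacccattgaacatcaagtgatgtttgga
Dmp1, downstream start, chr5:104202367-104202616: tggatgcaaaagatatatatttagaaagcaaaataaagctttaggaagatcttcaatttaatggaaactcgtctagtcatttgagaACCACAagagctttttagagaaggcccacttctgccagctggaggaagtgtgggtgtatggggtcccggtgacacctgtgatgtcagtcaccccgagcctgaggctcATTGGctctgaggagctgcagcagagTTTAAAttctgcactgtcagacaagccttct
Ibsp, chr5:104299037-104299286: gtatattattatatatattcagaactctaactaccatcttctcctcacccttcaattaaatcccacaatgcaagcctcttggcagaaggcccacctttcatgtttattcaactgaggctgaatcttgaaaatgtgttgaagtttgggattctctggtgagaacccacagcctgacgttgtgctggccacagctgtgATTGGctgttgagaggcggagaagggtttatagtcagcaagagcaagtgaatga
Mepe, chr5:104325079-104325328: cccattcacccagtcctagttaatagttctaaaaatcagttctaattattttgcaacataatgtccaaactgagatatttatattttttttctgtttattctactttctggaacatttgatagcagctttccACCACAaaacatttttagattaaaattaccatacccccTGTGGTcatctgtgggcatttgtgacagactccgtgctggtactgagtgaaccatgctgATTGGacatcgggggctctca
Spp1, upstream start, chr5:104434861-104435110: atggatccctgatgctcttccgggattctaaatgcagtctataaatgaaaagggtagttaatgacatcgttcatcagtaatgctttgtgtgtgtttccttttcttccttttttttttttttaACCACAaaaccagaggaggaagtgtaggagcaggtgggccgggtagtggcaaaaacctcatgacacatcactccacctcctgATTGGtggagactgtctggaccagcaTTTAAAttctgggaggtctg

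Each of these 5 windows holds 1 CCAAT box in the reversed orientation, with its outer base between 21 and 101 bases before the start. The motif is found in 33.8% of the 32851 windows of the same length in the RefSeq table, and it is missing from the window of the downstream start of Spp1. A Runx-type site, the letters bound by the bone transcription factor Runx2 and its relatives, lies before the downstream start of Dmp1, before Spp1 and, on both strands, before Mepe, against 14.0% of all windows. The letters TTTAAA occur in 12.1% of all windows and in those of the downstream Dmp1 start and the upstream Spp1 start. The longest runs these windows share are 11 bases, and there are 2 of them. TTTAAATTCTG begins 31 and 20 bases before the start and is found, on either strand, in 13 windows (0.0396%), and GGAGGAAGTGT begins 124 and 114 bases before it and is found in 45 (0.137%). A match describes the letters only.

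The deposit holds the expression values as scanner files, 1 per sample, and as a table of normalised values with 1 column per sample, and the pair do not carry the same labels. Each of 5 table columns ranked the probes as the raw signal of 1 scanner file did (Spearman correlation 1.00000), but that file carried another sample's label for 4 of these 5. Columns WT1, WT2, WT3, PN1 and PN3 of the table matched scanner arrays WT1, WT3, PN1, WT2 and PN2, where WT and PN stand for the labels wild type and Perp-null and the digit for the replicate. Column PN2 matched no scanner file and array PN3 no column, so the deposit holds 7 different arrays. Perp followed the labels in the table, with log2 signals of 17.01, 16.95 and 16.98 in the columns labelled wild type and 7.51, 8.24 and 7.26 in those labelled Perp-null (log2 fold change −9.31, SE 0.24; limma, adjusted p = 6.18e-06). Perp went against the label on 3 scanner arrays, WT2 (−5.06), PN1 (5.87) and PN3 (5.97). Each labelled group of scanner arrays thus held both high and low Perp, and Perp itself gave −0.59 (SE 4.32) there. The scanner comparison is therefore one of labels and cannot show an effect of losing Perp. Y-linked genes went against the male label on arrays WT2, PN1 and PN2 and likewise in columns WT3, PN1 and PN3. Both sources are given below, each under its own labels, and since they share 5 arrays they are not independent of each other.

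No SIBLING gene passed the test for a difference between the labelled genotypes, in either source. The labels separated high from low Perp in the table but not in the scanner files. In the scanner files 0 of 5 members and 0 of 26677 features had an adjusted p under 0.05 (limma, 0.00% of features). At an unadjusted p under 0.05 there were 630 features (2.36%) and 0 members, and with the replicate number as a block 1 feature passed. Of the 5 members 0 passed in the value table, where 6269 features did, or 23.5%, of which 8.64% were higher and 14.9% lower. At an unadjusted p under 0.05 it held 35.8% of features and 0 members. The number of features past the threshold was 1 without column PN2, 787 without PN3, 2662 without WT3 and 3188 without WT1. The labelled groups overlapped for all 5 members in both sources. They did not overlap for 7.05% of features in the scanner files (3.49% lower and 3.57% higher) and for 43.2% in the table (24.4% lower and 18.8% higher). On arrays matching the columns labelled wild type, the negative control spots had median raw signals of 90, 80 and 127, against 37.5 and 32 for columns PN1 and PN3. The table kept the ranks of signals without background subtraction, and the part of this background in its calls was not tested.

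**Figure D1:**
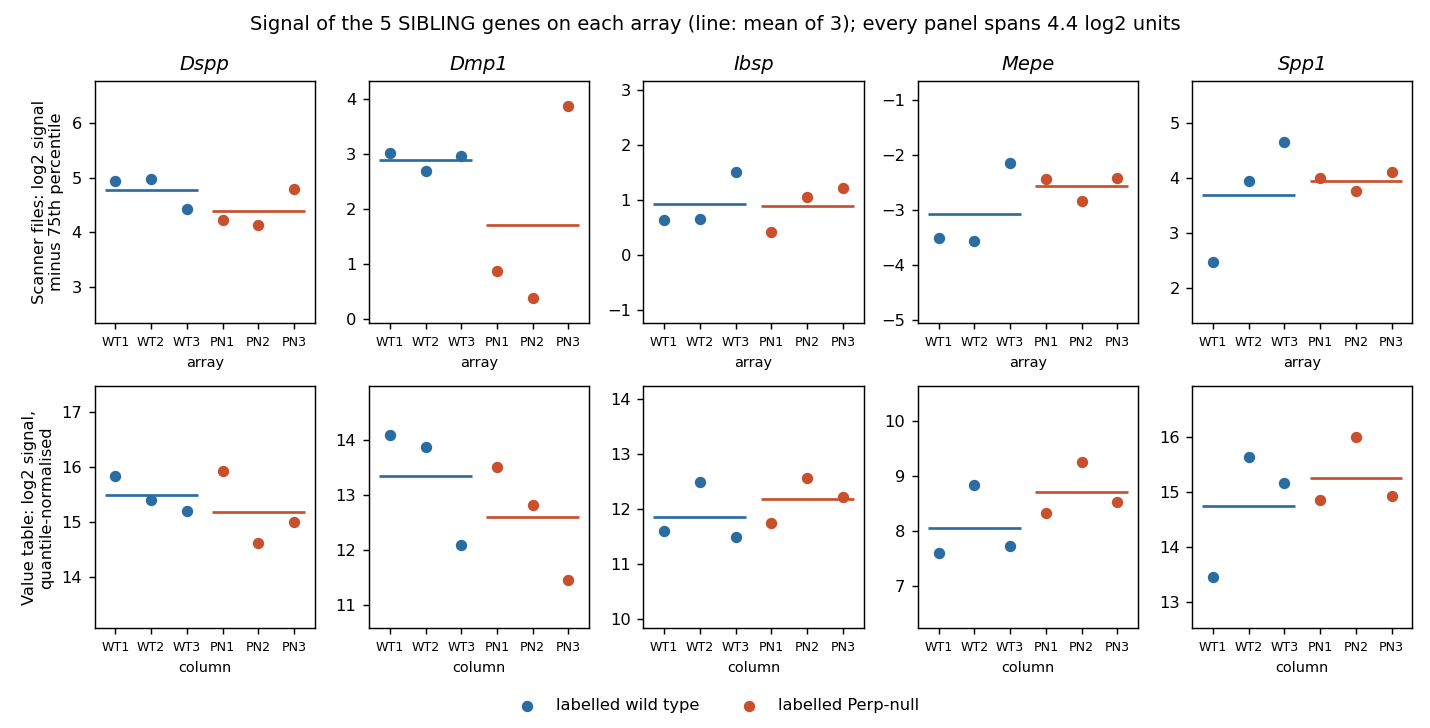
Signal of each SIBLING gene by sample, in the scanner files (top, log2 signal minus the 75th percentile of the array) and in the value table (bottom, quantile-normalised log2 signal), with points for samples and lines for the means of 3. Dmp1 and Spp1 spread most over the samples, and the labelled groups overlap in every panel.

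Dspp, the main noncollagenous protein of dentin, was bright on every array. Its log2 signal relative to the 75th percentile was 4.93, 4.98 and 4.42 on arrays WT1, WT2 and WT3 and 4.23, 4.13 and 4.79 on PN1, PN2 and PN3. The highest and lowest arrays differed 1.80-fold, and PN3 lay above WT3. Its residual SD, the spread within labelled groups, was 0.33 log2 units in the scanner files and 0.53 in the table, against medians of 0.23 and 0.19 for features of like brightness. Its raw median signal ran from 31375.5 to 60147.1, and no spot was called saturated. Between the labelled genotypes the log2 fold change was −0.39 (95% interval −0.95 to 0.16; limma, adjusted p = 1.00). In the value table the columns held 15.84, 15.40 and 15.20 for wild type and 15.92, 14.61 and 15.00 for Perp-null. Column PN1 was the highest of the 6 and PN2 the lowest. In these columns the log2 fold change was −0.30 (95% interval −1.03 to 0.43; limma, adjusted p = 0.573). Without column PN1 it was −0.68 (SE 0.20; limma, adjusted p = 0.0487), in a fit where 14.0% of features passed as lower.

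Dmp1, which nucleates mineral and takes part in phosphate regulation through osteocytes, spread most of the 5. On the scanner arrays its log2 signal was 3.01, 2.68 and 2.95 for wild type, and 0.87, 0.37 and 3.87 for Perp-null. Array PN3 was the highest of all 6 and 11.30-fold above PN2, which carries the same genotype label, while the arrays labelled wild type lay within 1.25-fold of each other. Dmp1 had a log2 fold change of −1.18 with a 95% interval of −3.20 to 0.85 (limma, adjusted p = 1.00), and −2.26 without PN3 (adjusted p = 0.392). In the value table Dmp1 was 14.09, 13.88 and 12.08 in the wild-type columns and 13.50, 12.82 and 11.46 in the Perp-null columns. Here both groups spread, 4.03-fold and 4.11-fold. The table's log2 fold change was −0.76 (95% interval −2.21 to 0.69; limma, adjusted p = 0.461). The residual SD of Dmp1 was 1.34 log2 units in the scanner files and 1.07 in the table, against the same medians.

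On the 3 scanner arrays where Perp followed the label, Dmp1 was lower on the PN array. These were WT1 and WT3 against PN2 alone, with a log2 fold change of −2.61. The spread of the single PN array was taken from the wild-type arrays. In that fit 39.7% of all features passed as lower, so Dmp1 was one of 10557 such features. Array PN2 is column PN3 of the table, where Dmp1 was also lowest. On the other arrays Dmp1 did not follow Perp. It was 2.68 on WT2, where Perp was low, and 0.87 on PN1 and 3.87 on PN3, where Perp was high. Array PN2 also differed from WT1 and WT3 in mean Y-linked signal (−9.35 against 0.49 and 0.35). It had the fewest probes above background (72.8%), and these differences cannot be told apart from Perp in that fit.

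Ibsp, a mineral-nucleating protein of bone and cementum, had log2 signals of 0.63, 0.66 and 1.51 on the wild-type arrays and 0.42, 1.05 and 1.22 on the Perp-null arrays. The groups lay over each other, with WT3 the highest and PN1 the lowest. Ibsp had a log2 fold change of −0.04 (95% interval −0.78 to 0.71; limma, adjusted p = 1.00). The value table gave 11.60, 12.48 and 11.49 for wild type and 11.73, 12.56 and 12.21 for Perp-null. Its log2 fold change of 0.31 (95% interval −0.40 to 1.02; limma, adjusted p = 0.550) had the other sign.

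Mepe, whose phosphorylated C-terminal peptide inhibits mineralisation, was the dimmest, with raw signals of 174 to 591.5 against local backgrounds of 19 to 22. It was called well above background on all 6 arrays. The wild-type arrays gave log2 signals of −3.51, −3.57 and −2.15, and the Perp-null arrays −2.45, −2.84 and −2.42. Arrays WT1 and WT2 were low and WT3 the highest of the 6. For Mepe the log2 fold change was 0.51 (95% interval −0.76 to 1.78; limma, adjusted p = 1.00). In the table the columns held 7.61, 8.84 and 7.73 for wild type and 8.33, 9.27 and 8.54 for Perp-null, a log2 fold change of 0.65 (95% interval −0.28 to 1.59; limma, adjusted p = 0.305). Column WT2 lay above PN1 and PN3, and the arrays behind columns PN1 and PN3 had the dimmest negative controls.

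Spp1, which binds integrins and CD44 and restrains crystal growth, was set apart by array WT1. The wild-type arrays gave log2 signals of 2.46, 3.95 and 4.66 in the order of their numbers, and the Perp-null arrays 3.99, 3.76 and 4.10. Arrays labelled wild type thus held both the lowest and the highest value, 4.59-fold apart, and those labelled Perp-null lay within 1.27-fold. For Spp1 the log2 fold change was 0.26 (95% interval −0.96 to 1.49; limma, adjusted p = 1.00). The table gave 13.45, 15.63 and 15.17 for wild type and 14.85, 15.99 and 14.93 for Perp-null. Column WT1, the same array, was again the lowest. Its log2 fold change in the table was 0.51 (95% interval −0.75 to 1.76; limma, adjusted p = 0.584). Without WT1 the sign turned in both sources, to −0.35 in the scanner files and −0.14 in the table (limma, adjusted p = 1.00 and 0.823).

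**Figure D2:**
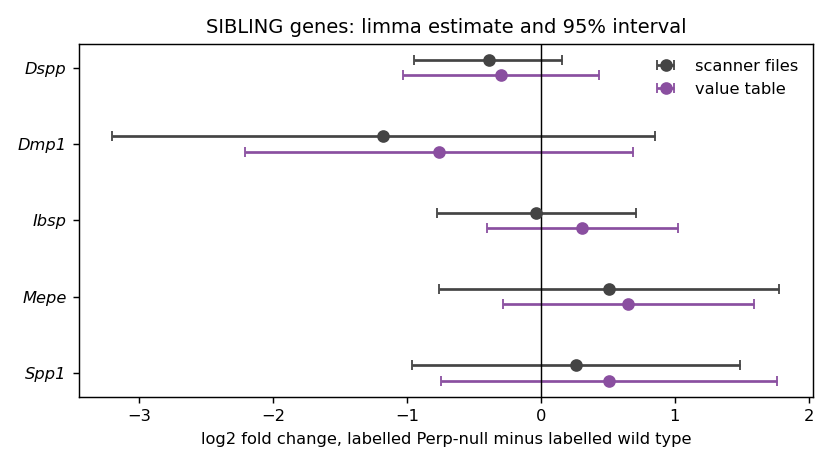
Log2 fold change of each SIBLING gene, labelled Perp-null minus labelled wild type, from the scanner files and from the value table. Points are limma estimates and bars 95% intervals, and each interval includes 0, from the narrow one of Dspp (−0.95 to 0.16 in the scanner files) to the wide one of Dmp1 (−3.20 to 0.85).

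The 5 genes were not all alike in their profiles over the samples, and some pairs lay closer than others. Likeness was measured as the root mean square difference of log2 signals after each gene's mean over the 6 samples was subtracted, against 13235 other named genes that were above background on all arrays. Among the members Mepe and Ibsp were closest in the table (0.23 log2 units) and Ibsp and Mepe (0.45) and Mepe and Spp1 (0.47) in the scanner files. Dmp1 and Spp1 lay 1.42 apart in both sources. The upstream letters that the downstream Dmp1 start and the upstream Spp1 start share were not tested for a link with the profiles. Dspp and Dmp1, neighbours on the chromosome, lay 1.00 apart in the scanner files and 0.75 in the table. The measure is not scaled, so it grows with a gene's own spread, which was 1.24 and 0.95 for Dmp1 and 0.33 and 0.46 for Dspp. Among the genes nearest to Dmp1, Dspp ranked 682 in the scanner files and 621 in the table, but Dmp1 ranked 11596 and 11238 from Dspp. Mepe ranked 47 and 145 from Spp1, and Ibsp 919 and 46 from Mepe.

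The genes most like Dmp1 included osteocalcin, the calcium-binding protein of dentin and bone matrix. They were Sytl2, Mamdc2, Ptprr and the osteocalcin-related Bglap3, in the scanner files, at differences of 0.34, 0.34, 0.37 and 0.40 log2 units. In the table they were Tnc, Bglap, Shisa4 and Col11a1, at 0.32, 0.33, 0.33 and 0.35. Bglap had log2 signals of 6.01, 6.41 and 5.41 on the wild-type arrays and 4.02, 3.94 and 6.17 on the Perp-null arrays, so that PN1 and PN2 were low and PN3 high, as for Dmp1. The osteocalcin genes are near-identical copies, and their probes may share RNA. Phex, an endopeptidase that protects against Mepe-derived peptides and was named after its values had been seen, ranked 8 in the scanner files (0.44) and 28 in the table (0.48). Its signal was 2.12, 2.58 and 1.79 on the wild-type arrays, then −0.38, −0.94 and 3.35 on the Perp-null arrays.

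Spp1 had osteoclast genes near it. Its nearest genes were Nts, Cstdc5, Col13a1 and Tspo2 in the scanner files (0.30 to 0.35) and Cstdc5, the protease Mmp9, the protease Ctsk and Nts in the table (0.25, 0.26, 0.29 and 0.30). Of 10 osteoclast markers, 7 were among the 100 nearest of 13235 genes in the scanner files and 5 in the table. This limit was set after the values had been seen. In the scanner files Nfatc1, Oscar and Calcr ranked 1732, 5779 and 9797, with Calcr and Oscar lowest on WT2 and Nfatc1 on PN1. In the table Itgb3, Dcstamp, Oscar, Atp6v0d2 and Nfatc1 lay outside the limit, at ranks of 126 to 9364. Ctsk, the collagen-degrading protease of osteoclasts, had log2 signals of 1.11, 2.39 and 3.40 on the wild-type arrays and 1.80, 2.93 and 2.05 on the Perp-null arrays. It was lowest on WT1 and highest on WT3, as Spp1 was. The summed signal of the osteoclast markers ran from 6.09 to 30.7 times the 75th percentile on the arrays labelled wild type and from 10.7 to 17.6 on those labelled Perp-null, with all 10 markers above background on every array. The part of osteoclasts in the Spp1 values was not tested, and in whole tissue fewer cells of a type cannot be told apart from less RNA per cell.

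**Figure D3:**
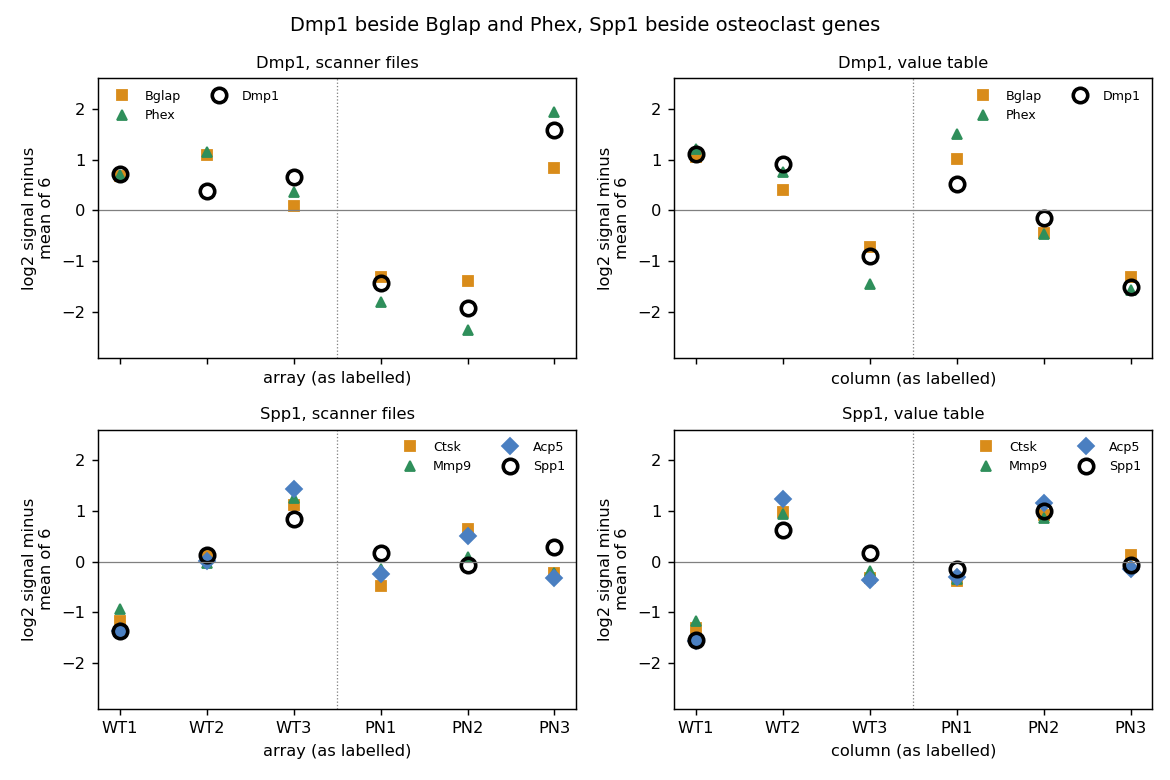
Log2 signal minus the mean of the 6 samples for Dmp1 beside Bglap and Phex, and for Spp1 beside the osteoclast genes Ctsk, Mmp9 and Acp5, in each source under its own labels (dotted line between the labelled groups). Dmp1, Bglap and Phex are low on arrays PN1 and PN2 and in columns WT3 and PN3, and Spp1 and the osteoclast genes shown are lowest on WT1.

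Nearest to Dspp in the scanner files were Ssr4, Ggh, Edem3 and Lpar1 (0.03 to 0.05), of which Ssr4 and Edem3 serve the endoplasmic reticulum. In the table they were Tapbp, Selenom, St8sia1 and Gng4 (0.08 to 0.11). Genes near Ibsp were Rcor2, Prep and Pspc1 in the scanner files (0.09, 0.13 and 0.16) and Ephb2, Dcaf12l1, Tinf2 and Srsf3 in the table (0.08 to 0.11). Mepe was nearest to Cma1, Ruvbl2, Gas2 and Fdps (0.12 to 0.23) and, in the table, to Slc16a10, Crispld1, Dctd and Samd12 (0.09 to 0.14). No gene was on both lists for these 3 members, whereas Nts and Cstdc5 were on both for Spp1.

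A list of processing genes, with Fam20 family genes, proteases, transglutaminases and procollagen enhancers, gave no call. Of 16 listed, 13 were tested, and 0 passed in either source, beside 0.00% of all features in the scanner files and 23.5% in the table. By their means 12 of 13 were lower in Perp-null in the scanner files, at a median log2 fold change of −0.77, beside 61.0% and −0.08 over all features. The table had 6 of 13 lower (48.7% of all features), at a median of 0.01, as over all features. The smallest p-values in the scanner files were those of the transglutaminase Tgm2 (−0.70, SE 0.22), the protease Mmp2 (−0.94, SE 0.32), the coagulation transglutaminase F13a1 (−0.88, SE 0.35) and the procollagen enhancers Pcolce2 (0.60, SE 0.28) and Pcolce (−0.88, SE 0.43). In the table the brightest probe of each of these 5 had the other sign, with Tgm2 at 0.13 (SE 0.27), Mmp2 at 0.46 (SE 0.44), F13a1 at 0.70 (SE 0.60), Pcolce2 at −0.19 (SE 0.29) and Pcolce at 0.13 (SE 0.39). The other probes of Tgm2 kept the sign there, at −0.12 and −1.59. Fam20c, the kinase that phosphorylates SIBLING proteins, gave −0.63 in the scanner files and −0.37 in the table.

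The receptors did not pass either. Of 10 receptor genes, 9 for integrin subunits and the other Cd44, 9 were lower by their means in the scanner files (median −0.36) and 7 in the table (median −0.06), with 0 calls in both. Over all features 61.0% were lower by their means in the scanner files (median −0.08) and 48.7% in the table (0.01). The shares that passed were 0.00% and 23.5%. The integrin subunit gene Itga9 gave −0.73 (SE 0.19) and then 0.16 (SE 0.32) in the table, and Itgav, the partner of the RGD-binding beta subunits, −0.38 (SE 0.17) and −0.15 (SE 0.17). Itgb1 (−0.30), Cd44 (−0.38) and Itga8 (−0.62) completed the 5 with the smallest p-values. For Cd44, Itga8, Itga9 and Itgav the other probes gave scattered values in the table, from −2.15 to 1.06 over the 3 probes of Itga8.

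Among 12 transcription factors of hard tissue cells, 0 passed in the scanner files and 1 in the table, where 23.5% of all features did. There Dlx6, a homeobox gene of the jaw named after its values had been seen, was 10.58, 10.48 and 11.61 in the wild-type columns and 9.80, 9.79 and 9.51 in the Perp-null columns. It fell by 1.19 on the log2 scale (SE 0.32; limma, adjusted p = 0.0345). The call was lost without WT1 (adjusted p = 0.0522), PN1 (0.0520), PN2 (0.0868) or PN3 (0.107), and with the filter of all arrays above background (0.0705). On the scanner arrays Dlx6 gave −0.07 (SE 0.67), and it was lowest on WT2 and PN2. These arrays match columns PN1 and PN3 and had the dimmest negative controls. Msx1, a homeobox gene of dental mesenchyme, gave −0.86 (SE 0.32) in the scanner files. Nfic, a factor needed for odontoblasts and roots, gave −0.56 (SE 0.21), Dlx5 −0.26 (SE 0.12) and Atf4 −0.20 (SE 0.12). There 9 of 12 were lower (median −0.23). Of the same 12, 3 were lower in the table (median 0.04), against 61.0% of all features in the scanner files and 48.7% in the table. In the table Msx1 (0.53, SE 0.42), Nfic (0.03, SE 0.21), Dlx5 (0.05, SE 0.12) and Atf4 (0.03, SE 0.14) had the other sign. For Nfic this held for the brightest probe only. Its other probes gave −0.09 and −0.02 in the scanner files, and −0.35 and −0.70 in the table.

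Of 14 mineral and matrix partners 13 were tested. All 13 had a lower mean in the scanner files, with a median of −0.46 and 0 calls, beside 61.0% and −0.08 over all features. The named ones were the collagen genes Col1a1 (−0.36, SE 0.16) and Col1a2 (−0.44, SE 0.22), Smpd3, a sphingomyelinase needed for mineralisation (−1.12, SE 0.53), Bglap (−1.24, SE 0.61) and Sparc, which binds collagen and calcium (−0.67, SE 0.33). The other probes of Col1a1 gave −1.19 and −1.37. The table had 10 of the 13 lower (median −0.16), beside 48.7% and 0.01 over all features. Col1a1 gave −0.08 there, Col1a2 −0.16, Bglap −0.49 and Sparc −0.07, while Smpd3 had the other sign at 0.43 (SE 0.66). The other probes of Smpd3 gave −0.84 and −0.19 in the scanner files, and 0.15 and −0.60 in the table. The single call there, beside 14.9% of all features as lower, was the phosphate hormone gene Fgf23, named after its values had been seen, which fell by 0.76 on the log2 scale (SE 0.19; limma, adjusted p = 0.0285). Its probe was not above background on 1 scanner array, PN2, and its call was lost without WT1 (adjusted p = 0.0678), WT3 (0.0666), PN2 (0.105) or PN3 (0.0758).

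The enamel members of the wider family of secretory calcium-binding phosphoproteins, which share ancestry with the SIBLING genes, showed no call in 5 tested genes, Sparcl1 included. Of all features 0.00% passed in the scanner files and 23.5% in the table. Ambn (ameloblastin) gave −0.66 (SE 0.53) in the scanner files and −0.93 (SE 0.69) in the table, Enam (enamelin) −0.51 (SE 0.50) and −1.18 (SE 0.75), Amelx (amelogenin) −0.26 (SE 0.23) and −0.41 (SE 0.27), and Odam 0.07 (SE 0.18) and 0.26 (SE 0.15). Their ancestral relative Sparcl1, next to Dspp, gave −0.57 (SE 0.19) and 0.02 (SE 0.25). At the other end of the cluster Pkd2 gave −0.26 (SE 0.19) and 0.29 (SE 0.18).

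Markers of the cell types that make SIBLING proteins were followed array by array. The median deviation of 4 odontoblast markers from their mean over the arrays was 0.34, 0.46 and 0.06 on the wild-type arrays and −0.75, −0.56 and 0.54 on the Perp-null arrays. Thus PN1 and PN2 were low and PN3 high, as for Dmp1. That list holds Dspp and Phex but not Dmp1, and Ibsp, Mepe and Spp1 did not have this order of arrays. For 9 tested osteoblast markers, Ibsp among them, it was 0.07, 0.33 and 0.43, then −0.50, −0.36 and 0.31. Their summed signal ran from 94.8 to 146 times the 75th percentile on the arrays labelled wild type and from 54.0 to 122 on those labelled Perp-null, and that of the odontoblast markers from 35.3 to 51.0 and from 24.8 to 54.3. Some other lists had this order in full or in part. Arrays PN1, PN2 and PN3 gave −0.44, −0.57 and 0.31 for the mineral and matrix partners, which share Bglap, Col1a1 and Alpl with the osteoblast list. For ameloblast markers they gave −0.03, −1.22 and 0.48, with PN1 near the mean. Dental mesenchyme markers (−0.88, −0.29 and −0.03) and endothelium (−0.88, 0.01 and −0.67) had no high PN3. Over all features these arrays gave 0.32, −0.27 and 0.06. In the table the odontoblast deviations were 0.50, 0.14 and −0.49 for wild type and 0.58, −0.28 and −0.37 for Perp-null, with both signs in both groups. All tested odontoblast and osteoblast markers were above background on every array. Of these markers 0 passed in either source, beside 23.5% of all features in the table. The part of these cells in the Dmp1 values was not tested.

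Of 6 osteocyte markers, a list that holds Dmp1 and Mepe, 0 passed in the scanner files and 2 in the table, Fgf23 and Sost, both lower, where 14.9% of all features passed as lower. Sost, a Wnt inhibitor of osteocytes named after its values had been seen, was 10.28, 10.22 and 11.73 in the wild-type columns and 8.75, 8.04 and 7.56 in the Perp-null columns. It fell by 2.63 on the log2 scale (SE 0.48; limma, adjusted p = 0.0216), and lost the call without PN2 (adjusted p = 0.0693) or PN3 (0.0600). On the scanner arrays Sost gave −0.75 (SE 1.51) and was lowest on WT2 (−2.88) and PN2 (−5.55). These are the arrays of columns PN1 and PN3, and they had the dimmest negative controls (37.5 and 32). The part of this background in the call was not tested. The chondrocyte list also had 2 calls of 12 in the table, the cartilage matrix genes Col9a1 (−1.74, SE 0.40) and Matn1 (−1.49, SE 0.41), both named after their values had been seen. Col9a1 lost the call without WT3 (adjusted p = 0.0540), PN2 (0.0728) or PN3 (0.0766), and Matn1 without WT1 (0.0696), WT3 (0.0727), PN2 (0.104) or PN3 (0.114). The chondrocyte markers were not all above background on PN2, where 4 of 12 were missing. Their summed signal ran from 10.7 to 20.0 times the 75th percentile on the arrays labelled wild type and from 6.58 to 15.4 on those labelled Perp-null.

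Markers of the other tissues in a tooth germ were read by the number with a lower mean in Perp-null and the median log2 fold change. Over all features 61.0% were lower in the scanner files (median −0.08) and 48.7% in the table (0.01). Of 7 tested ameloblast markers 5 were lower in the scanner files (−0.51) and 6 in the table (−0.81). Of 7 dental epithelium markers 2 were lower in each source (0.12 and 0.06), and of 9 dental mesenchyme markers 9 and 3 (−0.93 and 0.13). Of 10 osteoclast markers 7 were lower in the scanner files (−0.05) and 0 in the table (0.48), where Spp1 was also higher by its mean. The macrophage markers had 10 of 10 and 2 of 10 lower (−0.84 and 0.20), those of endothelium 10 of 10 and 2 of 10 (−1.04 and 0.30) and those of muscle 0 of 8 and 6 of 8 (0.79 and −0.19). Among these lists 0 genes passed in the scanner files and 2 in the table, where 23.5% of all features did (8.64% higher and 14.9% lower). They were the macrophage receptor gene Cd163 (1.11, SE 0.32; limma, adjusted p = 0.0410) and the endothelial adhesion gene Esam (−1.24, SE 0.31; limma, adjusted p = 0.0287). Both were named after their values had been seen. Cd163, whose probe was not above background on 1 array, lost the call without WT1 (adjusted p = 0.0732), WT3 (0.122), PN1 (0.0800), PN2 (0.109) or PN3 (0.0581). Esam lost it without WT3 (0.0832), PN2 (0.0788) or PN3 (0.0857), and with the filter of all arrays above background (0.0569).

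**Figure D4:**
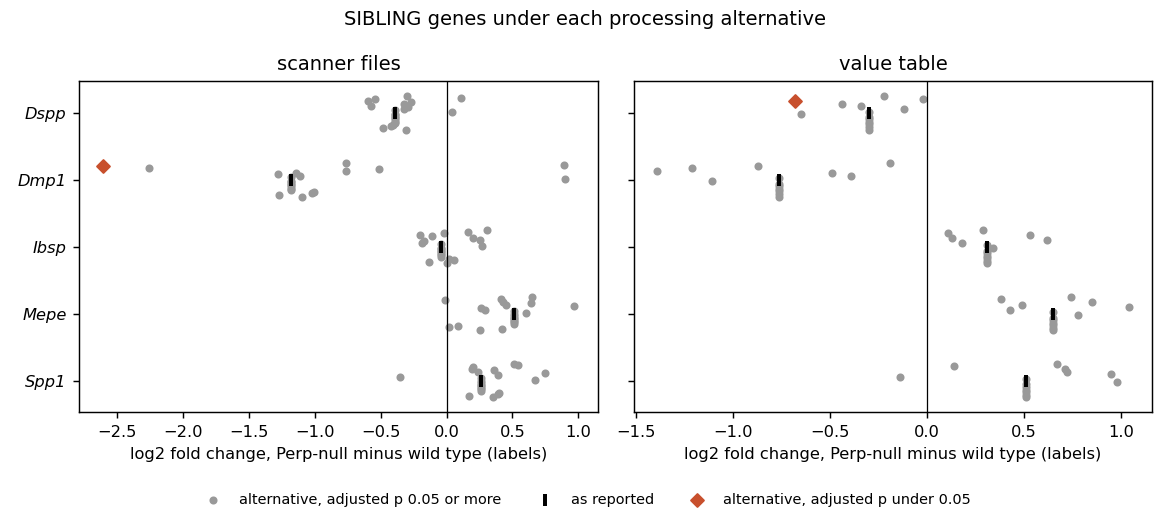
Log2 fold change of each SIBLING gene under every processing alternative, for the scanner files and the value table, with the reported value as a bar and alternatives as points. Among all of them 2 points have an adjusted p under 0.05, Dmp1 at −2.61 without the 3 arrays whose Perp signal goes against the label and Dspp at −0.68 without column PN1.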

How the data were processed

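Total RNA of lower molar tooth germs was labelled with Cy3, 1 array per sample, per the labels. The scanner files hold a linear intensity per spot, which the authors extracted with Agilent Feature Extraction and did not scale between arrays, version 10.5.1.1 per the file headers and 10.3 per the submitters' processing notes. The deposited value table holds log2 signals. How it was made is not given in the sources used here. Its columns have medians of 8.36 to 8.39 and near-equal quantiles, as after quantile normalisation, and match the raw median signal in rank.

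Log2 of the background-subtracted signal minus the 75th percentile of each array was used, without control and outlier spots. Of 41174 probes 60.3% were named by unversioned RefSeq accession (table of GRCm38.p6). Probes above background on at least 3 of 6 arrays were kept, with the brightest probe per gene. Labelled genotypes were tested by limma (version 3.58.1, R version 4.3.3; eBayes with trend, Benjamini-Hochberg adjustment over all features, threshold 0.05, 95% intervals), in the scanner files and, on the same probes, in the table. No set test was run. With 3 arrays per group, their number limits the precision. The fit was tested on simulated data. No level was compared between probes.

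The scanner fit was planned. The table was planned as an alternative, and its own alternatives were added after it was seen to follow Perp. Members and lists were chosen with earlier results of these data known. All 5 members were named, then up to 5 genes per list by smallest p, and the 4 nearest profiles. Genes named for other reasons are marked, and some that the rule gave are not reported here. Alternatives covered scaling, background, filters, probes, variance models, weights, the replicate block and left-out arrays. The slide and scan coincide with the label in the scanner files, so they cannot be told apart. Deviations of scanner arrays of the same number correlated at 0.843, 0.876 and 0.193, all above 0.1, the mark for pairs. The labels state no pairing. Scanner arrays of the same number also shared a high or a low Perp signal, which cannot be told apart from pairing.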

Additional observations from a re-analysis of the deposited data

How the results depend on the processing

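In the scanner files the count of features past the threshold moved from 0 (630 at an unadjusted p under 0.05 in limma) to 1 with normexp and 75th percentile scaling, 1 with the replicate block, 560 with array weights, 32 without the 3 arrays against the sex label, 12078 without the 3 against the Perp label, and 6269 in the value table. It was 0 without any single array. Members past the threshold stayed at 0 in 21 of 22 alternatives, and were 1 without the 3 arrays against the Perp label, Dmp1 at −2.61. Signs turned for Dspp with array weights (0.04) and without the arrays against the sex label (0.11), for Dmp1 in the same settings (0.90 and 0.89), and for Mepe without the arrays against the Perp label (−0.01). Ibsp turned with normexp (0.06, and 0.02 with quantile scaling), array weights (0.27), without the arrays against the sex label (0.16) and in the table (0.31). Leaving out single arrays gave −0.60 to −0.27 for Dspp, −2.26 to −0.51 for Dmp1, −0.20 to 0.25 for Ibsp, 0.26 to 0.97 for Mepe and −0.35 to 0.75 for Spp1. The median over all features was −0.23 with normexp and −0.17 with median scaling, against −0.08.

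In the value table the count moved from 6269 to 1543 with the filter of all arrays, which tested 20283 features, to 1 with the replicate block, and to between 1 and 5899 without single columns, and members past the threshold to between 0 and 1. Numbers did not pair its columns, with correlations of 0.408, 0.393 and −0.023, and with the block no member passed, Dmp1 being nearest (−0.76, limma, adjusted p = 0.0538). The block also ended the calls of Sost (0.0538), Cd163 (0.0538), Dlx6 (0.0547), Col9a1 (0.0549), Esam (0.0555), Fgf23 (0.0567) and Matn1 (0.0580), and the filter of all arrays left Fgf23, Cd163 and Matn1 untested. Leaving out single columns gave −0.68 to −0.02 for Dspp, −1.39 to −0.19 for Dmp1, 0.11 to 0.62 for Ibsp, 0.38 to 1.04 for Mepe and −0.14 to 0.95 for Spp1. The cause of these changes was not tested, beyond the fewer samples or features that some alternatives hold. Array weights did not converge fully. Over all alternatives the adjusted p of members ran from 6.15e-06 to 1.00 in the scanner files and from 0.0487 to 0.977 in the table.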
